A study of Mus musculus with 4 samples.

Results

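The clustered protocadherins are 58 mouse genes that lie in 3 neighbouring clusters on chromosome 18, and DNA methylation across them was read in 4 libraries of sorted CD4+ T cells. Members were the genes on chromosome 18 whose RefSeq symbol begins with Pcdha, Pcdhb or Pcdhg. They were 58 of the 49997 genes in the table, with 14 in the alpha cluster (12 Pcdha and 2 Pcdhac), 22 in the beta cluster and 22 in the gamma cluster (12 Pcdhga, 7 Pcdhgb and 3 Pcdhgc). With 5 kb on each side the clusters and the stretches between them span 922 kb, at chr18:36925285-37846873 (mm10). The alpha genes run from 36930285 to 37188897, the beta genes from 37264998 to 37521419 and the gamma genes from 37661775 to 37841873.

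Clustered protocadherins are cadherin-type adhesion proteins of the cell surface, best known from neurons, where each cell uses its own small choice of isoforms. In the alpha and gamma clusters each gene symbol stands for a variable exon with a promoter of its own, spliced to constant exons that the whole cluster shares, whereas beta genes are made of a single coding exon. The choice of a promoter involves the architectural protein CTCF and cohesin, and methylation of the promoter and variable exon is known to go with silence of the isoform. The C-type genes (Pcdhac1, Pcdhac2, Pcdhgc3, Pcdhgc4 and Pcdhgc5) lie at the 3′ end of the variable arrays and are used more broadly in neurons than the others. Expression was not measured here.

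Cells came from the spleen of NOD mice, which become diabetic by spontaneous autoimmunity. Mice received PBS, or the proteins OX40L and Jagged-1 (OX40L-JAG1), weekly for 3 weeks from an age of 6 weeks, and cells were sorted at 10 weeks. Sorting gave CD4+CD25- effector T cells (Teff) and CD4+CD25hi regulatory T cells (Treg) of each treatment, which makes 4 groups. OX40L binds the costimulatory receptor OX40 on T cells, while Jagged-1 binds Notch receptors. Where 4 levels follow each other without names, they are those of Teff and Treg from PBS mice and then of Teff and Treg from OX40L-JAG1 mice. Each group was 1 library, and the number of animals behind it is not stated in the labels. Every test and interval below therefore compares libraries and covers counting error only, and no spread between animals can be given.

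The methylation level is the share of reads at a CpG cytosine that were methylated, given in percent. Comparisons used positions that all 4 libraries covered with 5 reads or more, 1896 of them in the span (16.7% of those listed, against 18.9% in the genome). The alpha cluster held 632 such positions (18.8%), the beta cluster 551 (19.0%) and the gamma cluster 287 (8.95%). The median number of reads at a position was 15 and 11 in Teff and Treg of PBS mice, and 12 and 9 in those of OX40L-JAG1 mice. Windows of 1 kb with at least 5 such positions numbered 136 of 314517 in the genome, of which 48 lay in the alpha cluster, 38 in beta, 19 in gamma and 31 between the clusters. The cell sort could be read in Foxp3, the lineage factor of Treg, where the window at chrX:7580001-7581000 was methylated at 94.6% and 94.3% in the Teff libraries of PBS and OX40L-JAG1 mice, and at 41.0% and 46.5% in their Treg libraries. None of the 34 windows at 6 B cell marker genes was called different in any comparison. Nor was any of the 10 at the 5 measured of 6 CD8 T and NK cell marker genes. Over the genome 0.101% to 0.559% of windows were called, so a count of 0 in sets of this size is near the background. Among 5 measured of 6 myeloid genes, Spi1 was called higher in Treg in both pairs (for example 54.0% in PBS Teff and 90.1% in PBS Treg at chr2:91088001-91089000), and among 7 T cell genes only Cd3e was called, in 2 of the 4 comparisons. The part of these genes in the results below was not tested.

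Methylation of the clusters was lower than that of the genome in every library. Pooled over its positions, the alpha cluster was methylated at 77.0% (95% Wilson interval 76.3 to 77.7) in Teff and 76.8% (76.0 to 77.6) in Treg of PBS mice, and at 72.6% (71.8 to 73.4) and 73.2% (72.3 to 74.1) in those of OX40L-JAG1 mice. The beta cluster was methylated at 74.5%, 74.7%, 72.0% and 71.5% in the same order, and the gamma cluster at 73.7%, 73.0%, 72.4% and 73.2%. The corresponding genome levels were 85.2%, 84.9%, 81.6% and 82.2%, and those of the rest of chromosome 18 were 86.8%, 86.5%, 82.8% and 83.2%. The stretches between the clusters stood between the clusters and the genome in all 4 libraries, at 82.0%, 80.5%, 78.2% and 78.8%. Non-clustered protocadherins, which do not form such arrays, were methylated at 82.4%, 82.6%, 78.1% and 78.6%. The Hox clusters, arrays of developmental transcription factor genes, were far lower than the protocadherins in each library, at 32.8%, 32.8%, 32.5% and 32.0%.

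Over all clusters methylation was lowest at the gene starts, but the lower level was not limited to them. At 5 kb or more from every start, shared positions of the span were at 80.9%, 80.1%, 76.6% and 77.1%, also below the genome in each library. Since the gene table gives no strand, a gene start was taken as the lower coordinate, which fits the shared right-hand ends of the alpha genes (37187657 to 37188897) and gamma genes (37840489 to 37841873) and was assumed for beta. Few CpGs at the starts were read in all 4 libraries, so the course of methylation was drawn from the positions with at least 5 reads in each library on its own, an alternative chosen after the data had been seen. Between 1000 and 900 bases before a start, methylation was 79.2%, 74.4%, 76.6% and 77.3%. In the last 100 bases before the start it was 28.5% in PBS Teff (Wilson interval 26.3 to 30.8, 153 positions of 46 genes) and 24.9%, 36.0% and 29.6% in the other libraries. That stretch held the lowest value of the 20 bins of 100 bases in each of the 4 libraries.

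Within the body of the gene the level over all clusters climbed again, though not at once. Over the first 100 bases after the start it was 39.9%, 38.3%, 43.3% and 39.9%. From 700 to 799 bases after the start it had reached 67.2%, 73.4%, 63.5% and 75.2%. The dip was therefore seen in all 4 libraries, both cell types and both treatments. It was deepest just before the start, with low levels that reached past 300 bases into the gene. The positions differ from library to library in this profile, so small gaps between the curves are not comparisons of the libraries.

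**Figure D1:**
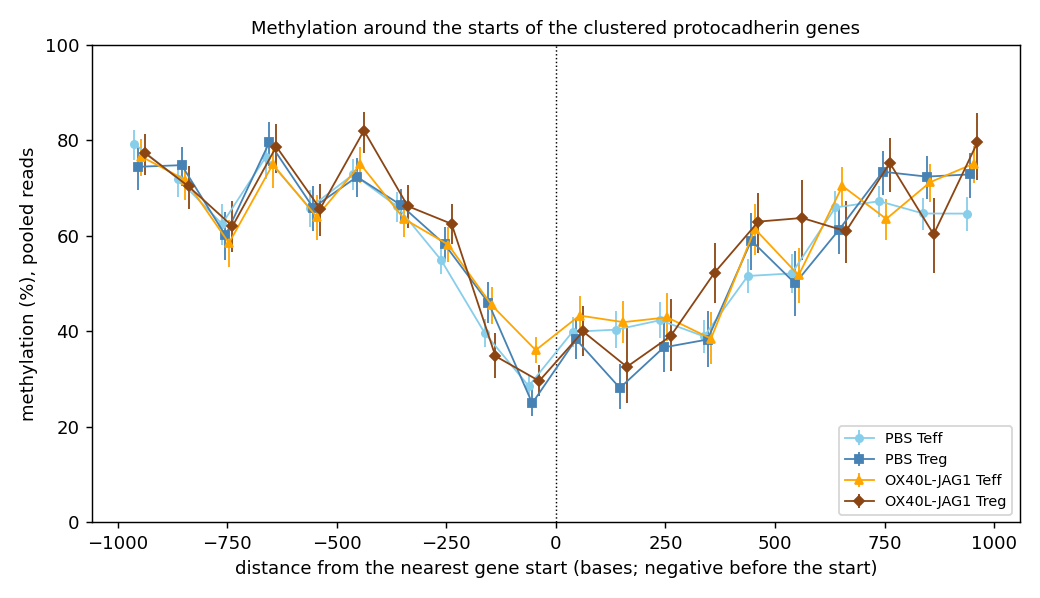
Methylation (percent of pooled reads, vertical axis) in bins of 100 bases from 1000 bases before to 1000 bases after the nearest clustered protocadherin gene start (horizontal axis), with 1 line per library and bars for 95% Wilson intervals; each library uses its own positions with at least 5 reads. All 4 lines fall to their lowest point in the last 100 bases before the start, at 28.5%, 24.9%, 36.0% and 29.6% in the order of the legend.

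Gene by gene, most of the starts that could be measured in all 4 libraries lay between low and full methylation. The 500 bases on either side of a start held at least 5 positions shared by the 4 libraries in 15 of the 58 genes, namely 5 alpha, 6 beta and 4 gamma genes. Shared positions lay mostly before the start. Over all genes 144 were in the 500 bases before a start and 29, of 888 listed, in the 500 bases after it. In 13 of these 15 the level lay above 20% and below 80% in all 4 libraries, the range called intermediate here. The same held for 20.4% of 2618 gene starts of other chromosomes measured in this way, of which 30.9% were at 80% or more and 30.9% at 20% or less. These were 2618 of 27025 listed starts, against 15 of 58 here. How alike the measured sites of both sets are was not tested. The 2 exceptions among the 15 protocadherin starts were Pcdha2, at 77.2%, 82.5%, 81.8% and 86.4%, and Pcdhb19, at 35.6%, 33.3%, 22.5% and 18.5%. The other starts were too thinly read for this count. Among them, with 4 shared positions each, Pcdhga8 was at 95.5%, 93.8%, 88.5% and 96.6%, and Pcdhb11 at 78.4%, 91.4%, 86.2% and 86.2%.

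Among the 5 measured alpha starts, Pcdha9 had the lowest mean level, with 23.3%, 37.8%, 40.5% and 43.2%, and Pcdha2 was the highest in every library. Pcdha7 lay at 41.9%, 45.2%, 35.0% and 44.2%, and Pcdha3 at 44.9%, 42.5%, 50.7% and 53.2%. The intervals of Pcdha7 and Pcdha3 overlapped in every library, whereas Pcdha2 stood above both in all 4. Among the 6 measured beta starts, Pcdhb19 and Pcdhb22 were lowest, the latter at 27.9%, 26.7%, 32.1% and 33.3%. Pcdhb7 was the highest of these beta starts at 66.7%, 65.3%, 60.3% and 63.4%. The measured gamma starts varied least between libraries, with a median range of 6.44 points over 4 genes against 10.6 for the 5 alpha and 16.8 for the 6 beta genes. Counting error widens such a range at low depth. Pcdhgb4 and Pcdhga9 (188 to 400 reads per library) were read more deeply than any of the measured beta starts. The part of read depth in this order was not tested. Pcdhgb4, the most deeply read start with 298 to 500 reads per library, was at 73.0%, 69.9%, 69.5% and 75.6%. Pcdhgb1 was at 43.5%, 43.9%, 48.2% and 46.5%, below Pcdhgb4 in every library. Among the measured starts, the highest of each cluster was thus the same gene in all 4 libraries (Pcdha2, Pcdhb7 and Pcdhgb4). Of the thinly read starts, Pcdhb11 was above Pcdhb7 and Pcdhga8 above Pcdhgb4 in every library. The lowest measured start was not the same gene throughout. Pcdha7 was below Pcdha9 in OX40L-JAG1 Teff, and Pcdhgb1 was below Pcdhga5 in OX40L-JAG1 Treg alone. Pcdhb22 was lowest in both PBS libraries and Pcdhb19 in both OX40L-JAG1 libraries. The intervals of each of these pairs of genes overlapped in every library.

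**Figure D2:**
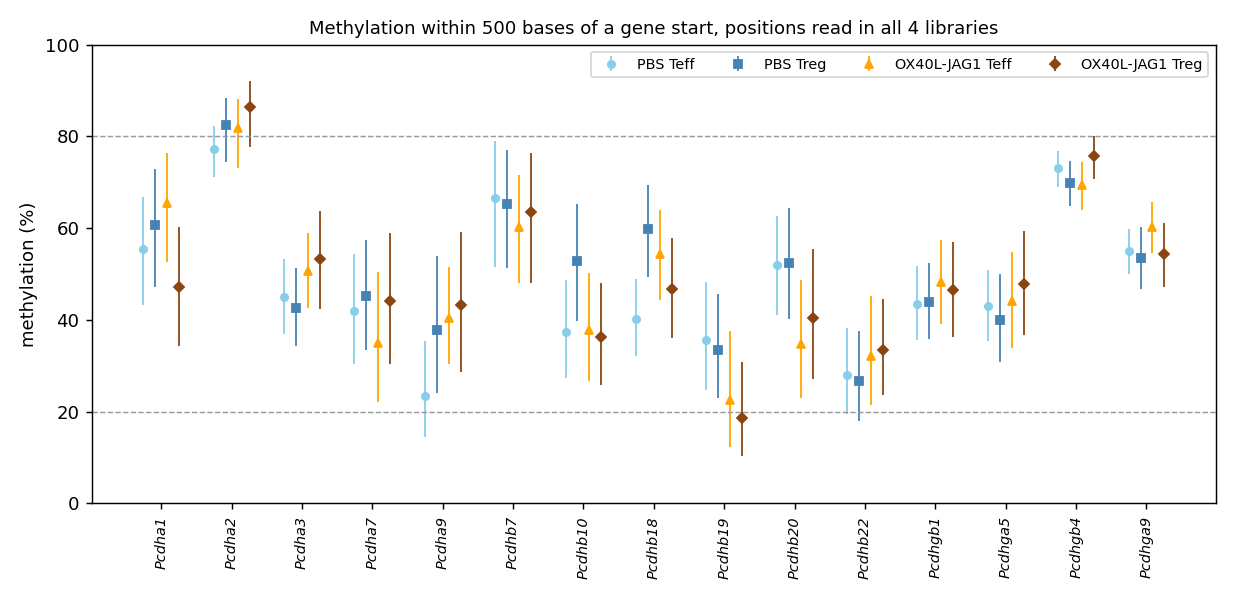
Methylation (percent, vertical axis) within 500 bases of the start of the 15 clustered protocadherin genes measured in all 4 libraries (horizontal axis, in chromosomal order), with 1 symbol per library and bars for 95% Wilson intervals; dashed lines mark 20% and 80%. Of the 15 genes, 13 lie between the dashed lines in all 4 libraries, and Pcdha2 and Pcdhb19 cross them.

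An intermediate level can average CpGs that are each low or high, so the single positions were examined. The 173 shared positions within 500 bases of a start, 144 before it and 29 after it, describe mainly the upstream side. In PBS Teff 50.9% of them were themselves between 20% and 80%, 22.5% were at 20% or less and 26.6% at 80% or more. The corresponding shares were 49.1%, 22.0% and 28.9% in PBS Treg. With OX40L-JAG1 they were 53.2%, 18.5% and 28.3% in Teff and 50.3%, 20.8% and 28.9% in Treg. At 5 kb or more from every start, 68.2% of 1014 positions were at 80% or more in PBS Teff and 4.44% were at 20% or less. The levels at starts thus held both kinds of CpG, with low CpGs several times as frequent as far from the starts. At such depths (a median of 13 reads in PBS Teff and 8 in OX40L-JAG1 Treg) a single position carries a wide counting error.

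Both strands of a CpG give a repeated reading within a library. Among 220 CpGs near starts with at least 5 reads on both strands in PBS Teff, 49 were at 20% or less on both strands, 45 at 80% or more on both, and 49 intermediate on both. The largest class, with 75 CpGs, was intermediate on one strand and low or high on the other (28 of 101, 43 of 125 and 12 of 32 in the other libraries). Only 2 were at 80% or more on one strand and 20% or less on the other, and none were in the 3 other libraries. A state of low, intermediate or high was thus often not the same on both strands, while opposite states were rare. With a minimum of 5 reads per strand the counting error is wide, and its part in this was not tested. The median difference between strands near starts was 11.9 points in PBS Teff. Over the whole span the median difference between strands of a CpG was 10.9 to 12.5 points within a library, and between libraries at the same position it was 7.73 to 8.89 points. These measures rest on different CpGs and depths, with median reads of 5 or 6 for strands and 8 to 10 between libraries. They therefore cannot be ranked against each other.

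The same pattern was visible in the windows. They sum the same shared positions, so windows at a start are not a separate reading of that start. A window was intermediate in all 4 libraries in 51 of the 136 cases, or 37.5%, against 12.9% of all windows of the genome and 10.4% of those on the rest of chromosome 18. The alpha cluster had 19 of 48 such windows, the beta cluster 16 of 38, the gamma cluster 9 of 19 and the stretches between them 7 of 31. Hox clusters (24.1%), non-clustered protocadherins (21.8%) and olfactory receptor genes (19.9%), another large family in tandem arrays, stood between the clusters and the genome. Windows at 80% or more in all 4 libraries made up 34.6% of the span (47 windows) and 65.1% of the genome. No window of the span was at 20% or less in all 4 libraries, against 1.16% of the genome and 39.8% of the 83 Hox windows. Given the genome's share, a count of 0 among 136 is near the background. The starts of Pcdhgc3 and Pcdhgc4, described below, held no position shared by the 4 libraries, so they did not enter this count. Whether an intermediate level reflects cells that differ, alleles that differ or a partial level in all cells cannot be told apart in such pooled counts.

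Clustered protocadherins of a subfamily resemble each other in sequence, and how reads that match several of them were placed is not given in the sources used here. Read depth in PBS Teff was over 3 times the median window's in 8 of the 136 windows. Of the other 128 windows 47 were intermediate (36.7%), close to the share over all. The start of Pcdhgb4 was in one of the deep windows, at 55.6 reads per position.

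**Figure D3:**
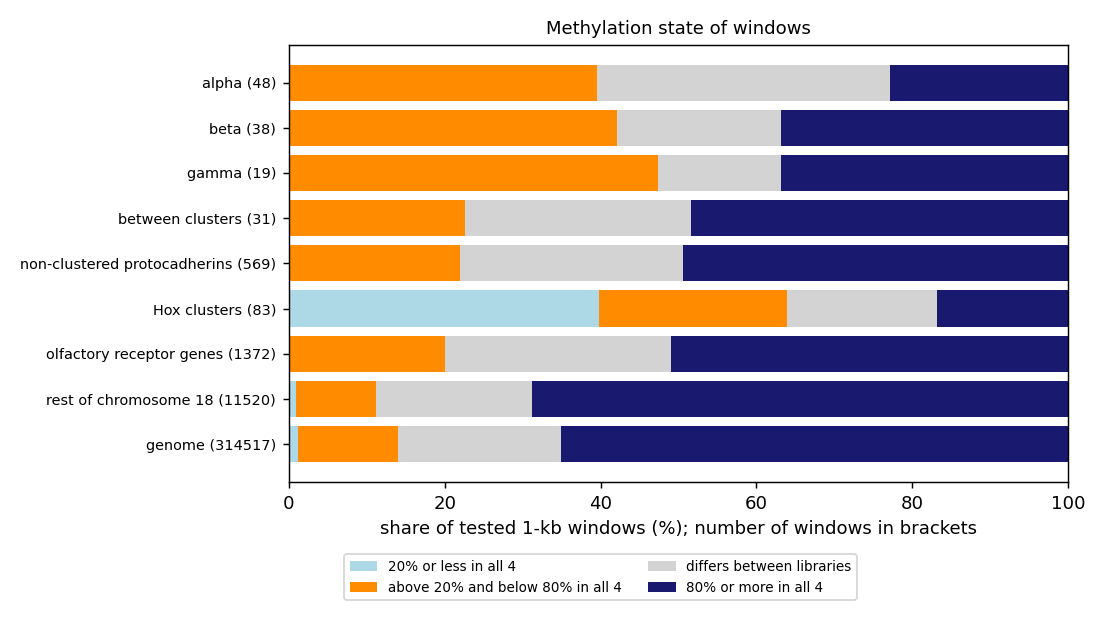
Share of tested 1-kb windows (percent, horizontal axis) by methylation state in the 4 libraries, for each protocadherin cluster, the stretches between them and 5 comparison sets (vertical axis, number of windows in brackets). The intermediate class makes up 19 of 48 alpha, 16 of 38 beta and 9 of 19 gamma windows, and 12.9% of the genome.

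The difference from the genome was larger in CpG-rich windows. Among windows with 20 to 39 listed positions, 16 of 26 in the span were intermediate (61.5%), against 11.4% in the genome. All 13 windows that hold a gene start were intermediate, with a median level of 48.4% (range 30.0 to 72.0%) averaged over the libraries. Of the 22 windows centred within 2 kb before a start, 13 were intermediate, with a median of 72.2%. Of the 70 windows more than 5 kb from a start, 14 were, with a median of 85.0%.

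Some of those 14 lay beyond the last gene start of a cluster or between groups of starts. The window at chr18:37172001-37173000, downstream of the last alpha start, that of Pcdhac2, was at 51.1%, 68.0%, 47.6% and 50.8%. The window at chr18:37790001-37791000, between the starts of the Pcdhga and Pcdhgb genes and that of Pcdhgc3, was at 60.0%, 65.2%, 50.7% and 55.3%. The window at the common 3′ end of the gamma genes (chr18:37841001-37842000) was at 70.6%, 67.8%, 71.8% and 66.2%. The table gives no exons, so these windows were not assigned to an exon or an intron.

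**Figure D4:**
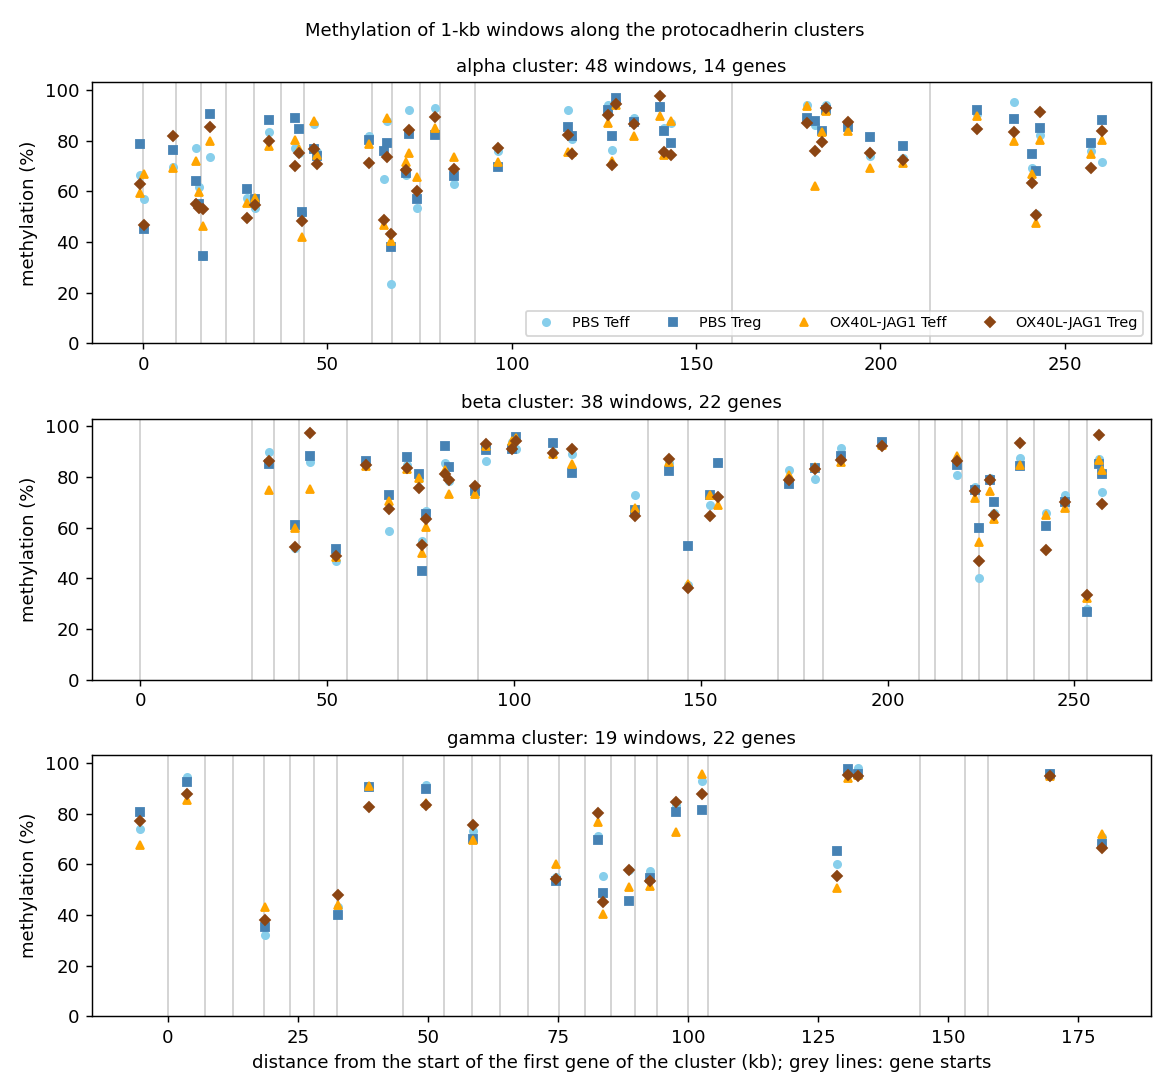
Methylation (percent, vertical axis) of the 48 alpha, 38 beta and 19 gamma windows of 1 kb against their distance from the start of the first gene of the cluster (kb, horizontal axis), with 1 symbol per library and grey lines at gene starts. The lowest window of each cluster by its mean over the libraries holds a gene start, and the 4 libraries follow the same course in each cluster.

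The 2500 bases from a start, which contain the variable exon, are CpG-rich and were read unevenly. Only 4 of the 58 genes had 5 shared positions there, so each library was described over its own positions (chosen after the data had been seen). On that basis 58, 56, 57 and 49 genes were measured, with median levels of 69.4%, 68.8%, 66.9% and 66.7% in the order given above. The level was intermediate in 52 of 58, 46 of 56, 46 of 57 and 36 of 49 genes. Of the 3975 listed positions, 60.8%, 29.3%, 38.1% and 17.6% had 5 reads in the respective library, so differences between libraries for a single gene are not comparisons of the same CpGs. Beneath these medians the genes spread widely.

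Genes measured in all 4 libraries were ranked by their mean level over this stretch. In the gamma cluster Pcdhgc4 was lowest, at 43.5%, 44.0%, 33.8% and 41.9% (mean 40.8%), followed by Pcdhga5 (mean 42.5%) and Pcdhga10 (48.9%), and Pcdhga3 was highest (86.0%), after Pcdhga2 (83.8%) and Pcdhgb2 (77.1%). In the beta cluster the lowest were Pcdhb6 (58.9%), Pcdhb10 (60.3%) and Pcdhb2 (60.9%), and the highest Pcdhb17 (84.5%), Pcdhb9 (80.6%) and Pcdhb15 (79.7%). In the alpha cluster the lowest were Pcdhac2 (55.4%), Pcdha12 (56.1%) and Pcdha4 (57.9%), and the highest Pcdha8 (79.3%), Pcdha11 (78.5%) and Pcdha10 (76.6%). The alpha and beta genes thus covered a narrower range than the gamma genes. Pcdhac2 was the least settled of these values, with 90.5% in PBS Teff from 25 positions and 26.8% in PBS Treg from 8.

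The C-type genes did not form a single group. Pcdhgc3 was low both in its first 2500 bases, at 8.92% in PBS Teff (695 reads at 117 positions), 36.7% in PBS Treg and 29.8% in OX40L-JAG1 Teff, and in the 1500 bases before its start, at 28.7%, 19.8%, 17.7% and 12.5%. It was not measured in OX40L-JAG1 Treg over the first 2500 bases, where 4 positions were read. Pcdhgc4 was lowest before its start, at 10.6% in PBS Teff, 0% in PBS Treg (0 of 31 reads, which allows a level of up to 9.68% taken as 3 reads of the total, and up to 11.0% by the Wilson interval) and 6.52% in OX40L-JAG1 Teff. Pcdhac2 was low before its start in PBS Teff (21.7%), OX40L-JAG1 Teff (29.4%) and OX40L-JAG1 Treg (28.9%) and higher in PBS Treg (47.8%, 69 reads). Pcdhac1 (69.1%, 73.3%, 55.6% and 65.6% before its start) and Pcdhgc5 (82.6% with PBS, 69.4% with OX40L-JAG1, both in Teff) were not among the low ones, and the median of all genes measured before the start was between 61.4% and 65.6% in the 4 libraries. The low C-type genes were therefore Pcdhgc3, Pcdhgc4 and, upstream of its start, Pcdhac2. Low levels were not limited to C-type genes. Pcdhgb5, Pcdhgb7 and Pcdhb1, each measured in 3 libraries and so not ranked, had means of 27.6%, 35.9% and 36.9% over the first 2500 bases. These lie below the 40.8% of Pcdhgc4. Before its start Pcdha6 was at 33.8%, 37.4% and 38.9% in the 3 libraries measured (PBS Teff, PBS Treg and OX40L-JAG1 Teff).

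The comparison of Treg with Teff asked whether the clusters differ between the cell types. No protocadherin window was called different in either treatment, where called means an adjusted p under 0.05 (two-sided Fisher's exact test with Benjamini-Hochberg adjustment over all windows of the genome) and a difference of at least 20 points. Over the genome 0.279% of windows were called in PBS mice and 0.114% in OX40L-JAG1 mice, so a count of 0 among 136 is near the background. At an unadjusted p under 0.05 there were 6 of 136 windows in each pair (4.41%), below the 5.73% and 5.30% of the genome in PBS and OX40L-JAG1 mice. The cluster levels of Treg minus Teff were -0.191 points (alpha), 0.207 (beta) and -0.627 (gamma) in PBS mice, and 0.627, -0.416 and 0.826 in OX40L-JAG1 mice, and all 6 Newcombe intervals included 0. The direction of all 3 differences was opposite in the pairs.

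Single gene starts varied more, with wide intervals. The start of Pcdhb18 was at 40.2% in PBS Teff (127 reads) and 59.8% in PBS Treg (87 reads), 19.6 points higher in PBS Treg (Newcombe interval 5.98 to 32.2), but at 54.3% and 46.8% in Teff and Treg of OX40L-JAG1 mice. The next highest in the PBS pair were Pcdhb10 (15.4 points) and Pcdha9 (14.5 points), both with intervals that included 0, and the lowest differences were -3.06 (Pcdhgb4), -2.95 (Pcdhga5) and -2.41 points (Pcdha3). With OX40L-JAG1 they ran from -18.3 points at Pcdha1, -7.50 at Pcdhb18 and -6.02 at Pcdhga9 to 9.19 at Pcdha7, 6.15 at Pcdhgb4 and 5.78 at Pcdhb20. All 15 intervals of that pair included 0, and Pcdhb18 changed sign between the pairs.

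When only PBS Treg and PBS Teff had to cover a position, 1 of 337 protocadherin windows was called between them (0.297%), near the 0.232% of the genome. It lies near Pcdhgc3. At chr18:37801001-37802000, 4410 bases before Pcdhgc3, shared positions gave 77.8% for PBS Teff (45 reads) but 24.4% for PBS Treg (41 reads), a difference of -53.4 points (Fisher's exact test, adjusted p = 0.000858 over 789286 windows). The window was not tested with positions of all 4 libraries, since 1 of its 10 listed positions was shared. In OX40L-JAG1 mice, own positions gave 71.4% in Teff from 14 reads and 52.6% in Treg from 19 reads, with overlapping intervals.

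The comparison of OX40L-JAG1 with PBS asked whether the treatment libraries differ within a cell type. Both the alpha and beta clusters were less methylated in the OX40L-JAG1 libraries, as was the genome. In Teff the difference was -4.40 points for alpha (Newcombe interval -5.45 to -3.35), -2.55 for beta (-3.73 to -1.37) and -1.27 for gamma (-3.07 to 0.520), against -3.58 for the genome. In Treg it was -3.58 for alpha (-4.79 to -2.38), -3.17 for beta (-4.53 to -1.81) and 0.183 for gamma (-1.88 to 2.24), against -2.74 for the genome. The alpha and beta differences lay on the same side as the genome's, and the gamma intervals included 0. With every position read in a library in place of the shared ones, beta in Treg moved to -0.319 points, alpha in Treg to -1.97, and gamma in Teff to 2.35.

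The lower level in the OX40L-JAG1 libraries was not seen at the gene starts. Within 500 bases of a start 173 positions were shared, most of them before the start. Their pooled level was 55.5% with PBS and 56.4% with OX40L-JAG1 in Teff, 0.904 points apart (Newcombe interval -1.84 to 3.64). In Treg the levels were 55.2% and 55.5%, which differ by 0.336 points (-2.79 to 3.46). At 5 kb or more from every start, the 1014 shared positions were at 80.9% with PBS and 76.6% with OX40L-JAG1 in Teff, which differ by -4.32 points (-5.08 to -3.56). In Treg they were at 80.1% and 77.1%, which differ by -2.99 points (-3.87 to -2.12). In Teff the intervals near and far from the starts did not overlap, whereas in Treg they did. Of the 13 windows that hold a start, 10 were higher and 3 lower in OX40L-JAG1 Teff than in PBS Teff, with a median of 4.24 points, while 57 of the 70 windows over 5 kb away were lower, with a median of -2.72. In Treg 8 of the 13 were higher (median 1.35) and 52 of the 70 lower (median -2.50). The difference did not shrink steadily towards a start: of the 22 windows centred within 2 kb before a start, 16 were lower in OX40L-JAG1 Teff, with a median of -4.07, and 13 in OX40L-JAG1 Treg, with a median of -0.669. The comparisons in Teff and Treg share no library.

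Other gene starts of the genome showed a smaller drop than the genome as a whole. Over the 2618 starts of other chromosomes the median difference of OX40L-JAG1 minus PBS was -0.945 points in Teff and -0.323 in Treg. Among the 535 that were intermediate in all 4 libraries it was -1.93 and -0.877, with 60.0% and 54.8% lower. At the protocadherin starts measured gene by gene, 10 of 15 were higher in OX40L-JAG1 Teff and 8 of 15 in OX40L-JAG1 Treg. These starts share positions with the windows that hold a start, so the counts of starts and windows rest partly on the same reads. In Teff the difference was highest at Pcdha9 (17.2 points, Newcombe interval 1.38 to 31.3), followed by Pcdhb18 (14.1, 0.817 to 26.7) and Pcdha1 (10.1), and lowest at Pcdhb20 (-17.2), Pcdhb19 (-13.1) and Pcdha7 (-6.94). In Treg it was highest at Pcdha3 (10.6), Pcdhga5 (7.89) and Pcdhb22 (6.67) and lowest at Pcdhb10 (-16.5), Pcdhb19 (-14.8) and Pcdha1 (-13.6), and all 15 intervals included 0. Pcdhb19 was thus on the lower side in both cell types, while Pcdhb18 had opposite signs in them (-13.0 points in Treg).

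**Figure D5:**
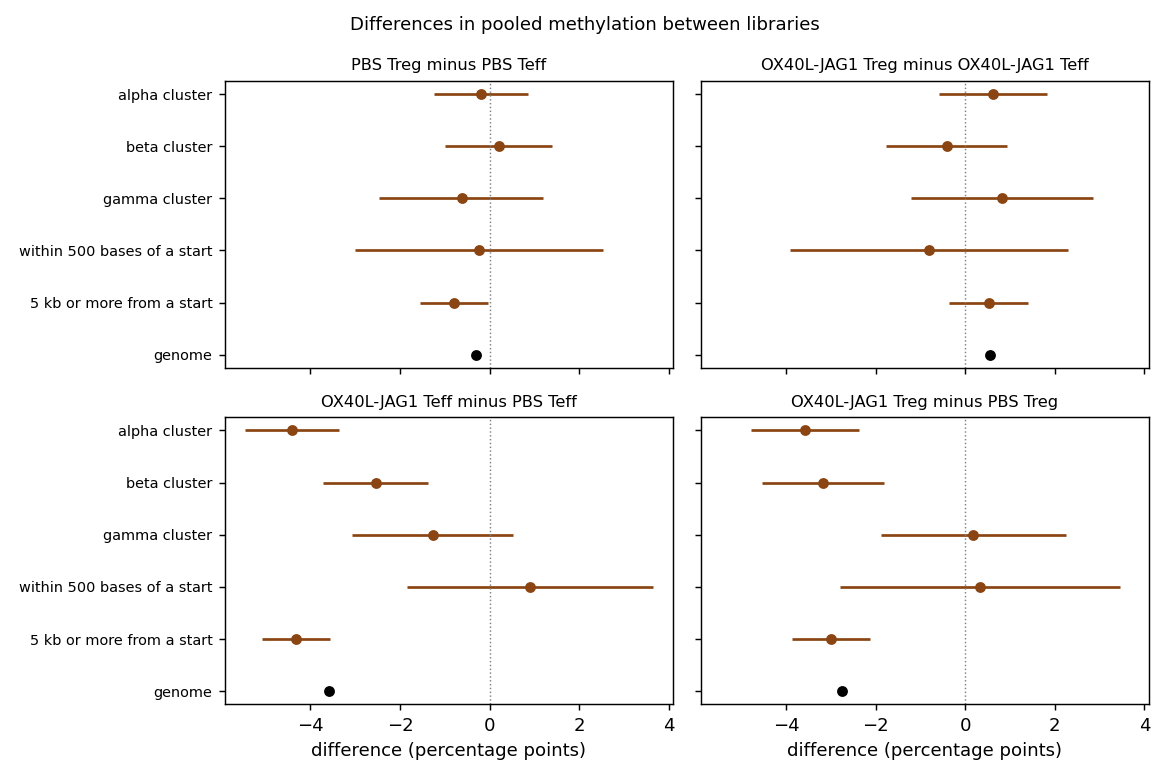
Difference in pooled methylation between libraries (percentage points, horizontal axis, with 95% Newcombe intervals) for the 3 clusters, for positions near to and far from gene starts and for the genome (vertical axis), in the 4 comparisons. In the OX40L-JAG1 panels the alpha and beta clusters and the positions 5 kb or more from a start lie below 0 with the genome, and the intervals of the gamma cluster and of positions within 500 bases of a start include 0.

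Calls were again few. No protocadherin window was called between OX40L-JAG1 Teff and PBS Teff, where 0.559% of the genome was called, and 17 of 136 had an unadjusted p under 0.05 (12.5%, below the 15.9% of the genome). Between OX40L-JAG1 Treg and PBS Treg 1 window was called, where the background was 0.101%, and 9 had an unadjusted p under 0.05 (6.62%, below the 9.48% of the genome). No window was called for a response that differed between the cell types (Wald test of the interaction, background 0.0108%), and 4 had an unadjusted p under 0.05 (2.94%, below the 4.98% of the genome).

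The called window lies in the alpha cluster at chr18:36995001-36996000, between gene starts. It begins 2534 bases after the start of Pcdha8 and ends 1880 bases before that of Pcdha9, inside the annotated bodies of Pcdha1 to Pcdha8, which all run to the common end. Its level was 65.0% (137 reads) and 76.1% (117 reads) in Teff and Treg of PBS mice, and 46.7% (137 reads) and 48.6% (74 reads) in those of OX40L-JAG1 mice. Both OX40L-JAG1 libraries were thus below both PBS libraries. The difference was -27.4 points in Treg (Fisher's exact test, adjusted p = 0.0483) and -18.2 points in Teff (adjusted p = 0.0784), and the library pairs share no library. By the same exact test, the call in Treg ended with windows of at least 3 positions (adjusted p = 0.0790), with positions read in only the libraries compared (adjusted p = 0.0602) and with read counts divided by 3 (adjusted p = 1).

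All 5 positions of the window were lower in OX40L-JAG1 Treg than in PBS Treg. At 36995503 the level was 83.8%, 87.9%, 61.1% and 56.2%. At 36995577 it was 51.4%, 63.0%, 32.4% and 45.5%, and at 36995174 it was 67.6%, 76.9%, 51.6% and 54.5%. Position 36995693 was at 76.0% with PBS and 56.2% with OX40L-JAG1 in Treg, and 36995694, the next base, at 66.7% and 22.2%. In the adjoining window on the side of Pcdha9 the Treg level was 79.1% with PBS and 73.5% with OX40L-JAG1, a difference of -5.64 points with an interval that included 0.

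Genes around and related to the clusters were counted in the same way. Of 18 regulators known to act on the clusters, among them Ctcf, the cohesin gene Rad21, Smchd1 and the DNA methyltransferases, 1 had a called window. That is 1 of their 313 windows (0.319%), near the 0.279% of all windows called between PBS Treg and PBS Teff. The gene was Dnmt1, the maintenance methyltransferase, with 24.2% methylated in PBS Teff (33 reads) against 76.7% in PBS Treg (30 reads, adjusted p = 0.0129, Fisher's exact test) at chr9:20951001-20952000. No regulator was called in the other 3 comparisons. None of the 569 windows at 12 non-clustered protocadherins, and none of the 55 at the 13 measured of 15 genes inside or beside the clusters, was called in any of the 4 comparisons.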

How the data were processed

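Whole-genome bisulfite libraries were trimmed with Trimmomatic and aligned with Bismark to mm10, per the submitters' processing notes; their versions, settings and any removal of duplicate reads are, in the sources used here, not given. For each cytosine position and library the table gives, per the file headers, a deposited count of reads and a deposited count of methylated reads. It also holds a deposited level that is headed as a percentage but runs as a fraction from 0 to 1, which was not used for tests. Every deposited count above 0 is at least 5. At 1 library per group, p-values compare libraries. Reads count once at each position they cover, and duplicates may remain, so intervals (95% Wilson for levels, Newcombe for differences) cover counting error only. On the mitochondrial genome 0.620% to 0.712% of reads were called methylated, which limits the share of unconverted bases.

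Genes came from the RefSeq table of the GRCm38.p6 assembly (named mm10 elsewhere), without strand or exons. Reads were summed in 1-kb windows with at least 5 positions that had 5 reads in all 4 libraries. Windows were compared by the two-sided Fisher's exact test, and the interaction by a Wald test with 0.5 added to each cell, both adjusted by Benjamini-Hochberg over all windows and tested on simulated data. Python 3.11.15, numpy 2.4.6, pandas 2.3.3 and scipy 1.17.1 were used. Named genes were those with a called window, the 3 lowest and 3 highest of each cluster over the first 2500 bases, the C-type genes, and the 3 largest differences each way in every comparison; other lists were counted. The starts of Pcdha2, Pcdha5, Pcdhb7, Pcdhb11, Pcdhb15, Pcdhgb1, Pcdhga6 and Pcdhga8, and the windows far from a start, were chosen after their values were seen. So were the levels of Pcdha6, Pcdhb1, Pcdhgb5 and Pcdhgb7. The members and lists were chosen with earlier results of these data known. No sequence is printed. Alternative read minimums, window sizes, position sets and thresholds were tried.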

Additional observations from a re-analysis of the deposited data

How the results depend on the processing

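No paired analysis was possible because each group is 1 library. With at least 10 reads per position, 27 windows of the span were tested and 0 were called in OX40L-JAG1 Treg against PBS Treg in place of 1; the window before Pcdha9 was not among them. That count was also 0 with windows of at least 3 positions, with positions of only the pair compared and with read counts divided by 3. With 2-kb windows 1 was called in OX40L-JAG1 Teff against PBS Teff (chr18:37130001-37132000, 91.5% and 71.0%, -20.5 points, adjusted p = 0.0119, Fisher's exact test), which is 0.556% of 180 windows, against 0.555% of the genome at this setting, and with positions of only the pair compared 1 of 337 in PBS Treg against PBS Teff, near Pcdhgc3. The other window counts were the same as reported. The share of intermediate windows was 35.0% to 41.1% under 4 alternatives chosen after the data had been seen.

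Levels of the clusters depended on which CpGs were pooled, and the cause was not tested (all in the order PBS Teff, PBS Treg, OX40L-JAG1 Teff, OX40L-JAG1 Treg unless a library is named). With at least 10 reads the alpha level was 78.4%, 78.2%, 73.8% and 75.3% and the beta level 76.2%, 76.3%, 73.3% and 73.7%. As a mean of the levels of positions, alpha was 75.7%, 76.0%, 71.6% and 71.7% and beta 72.7%, 73.5%, 70.2% and 69.9%. With every position read in a library, alpha was 75.0%, 74.9% and 71.4% in the first 3 libraries, beta 73.0% and 72.2% in the PBS libraries, and gamma 66.8%, 69.1%, 69.1% and 70.4%. The forward strand could be told only where both strands of a CpG are listed, and over those positions alpha was 71.4%, 72.9%, 67.4% and 70.3%, beta 68.0%, 65.8%, 63.8% and 62.2%, and gamma 70.5% in PBS Treg and 70.5% in OX40L-JAG1 Teff.

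Differences between OX40L-JAG1 and PBS moved with every position read in a library to -1.97 (alpha, Treg), -0.319 (beta, Treg) and 2.35 points (gamma, Teff), and Treg minus Teff of gamma in PBS to 2.35. On the forward strand they moved to -4.13 (beta, Teff), -3.26 (gamma, Teff) and 4.21 (gamma, Treg), and Treg minus Teff to 1.53 (alpha, PBS), 2.94 (alpha, OX40L-JAG1), -2.19 (beta, PBS), -3.26 (gamma, PBS) and 4.21 points (gamma, OX40L-JAG1). Within 500 bases of a start, each library's own positions gave 46.1%, 47.0%, 49.6% and 49.4%; over the first 2500 bases they gave 64.2%, 65.0% and, in OX40L-JAG1 Treg, 67.5%, against 68.1%, 68.9% and 61.9% at the 79 shared positions. Single CpGs were not tested; at a median of 9 to 15 reads per position each carries a wide counting error, and most variable exons were not read in all 4 libraries.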
